A study of Homo sapiens with 18 samples.

Results

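The genes described here are 9 components of the tight junction: the claudins CLDN1, CLDN2, CLDN3, CLDN4, CLDN7 and CLDN12, the membrane protein gene OCLN, the scaffold gene TJP1 and the adhesion molecule gene F11R. They make up 9 of the 60656 gene rows in the count table. The set was chosen by gene family and by a measured value, the strong rise of CLDN2 with palbociclib in ZR-75-1 cells, and that rule had no numerical threshold. The comparison of palbociclib with DMSO in ZR-75-1 is therefore given for all 9 genes as a description, without a test, and so is every difference that contains it.

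Tight junctions seal the gap between neighbouring epithelial cells close to their apical surface. Claudins span the membrane, and their extracellular loops decide which ions pass between cells; CLDN2 is known as a claudin that forms pores for cations, whereas CLDN1, CLDN3 and CLDN4 are known mainly as sealing claudins. OCLN (occludin) lies in the same strands, TJP1 (ZO-1) ties claudin tails to the actin cytoskeleton, and F11R (JAM-A) is an adhesion molecule of the immunoglobulin family.

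RNA was profiled by 3′-end messenger RNA sequencing in CAMA-1 and ZR-75-1, which are established breast cancer lines that carry the oestrogen receptor, both used as wild-type parental cells grown in RPMI-1640 with fetal bovine serum. Cells received abemaciclib at 500 nM, palbociclib at 500 nM or the solvent DMSO for 5 days. Both drugs inhibit the kinases CDK4 and CDK6. Each of the 6 groups held 3 libraries, 18 in all, which the study describes as independent biological replicates of 1 experiment, so p-values measure the spread between those cultures.

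The libraries held 2308442 to 4146549 counts. Levels are given as CPM, the usual scaling of counts to the library total, after TMM scaling over all 18 libraries. A single count was worth 0.230 to 0.429 CPM and the counting floor of 3 counts 0.689 to 1.29 CPM. The luminal markers ESR1, GATA3, FOXA1, KRT8, KRT18 and KRT19 were all present, with the lowest library value being 38.3 CPM for ESR1. Summed over 10 markers of leukocytes, fibroblasts, endothelium and basal cells, levels in CAMA-1 ran from 14.7 to 26.5 CPM with DMSO and from 11.6 to 16.6 CPM with a drug. In ZR-75-1 they ran from 21.0 to 32.5 CPM with DMSO, from 26.5 to 40.3 with abemaciclib and from 32.2 to 41.5 with palbociclib. COL1A1 and LYZ carried most of these sums. LYZ, a lysozyme gene of myeloid and some epithelial cells, averaged 2.67 ± 1.8 CPM in ZR-75-1 with DMSO, 3.55 ± 2.1 with abemaciclib and 7.97 ± 2.9 with palbociclib, whose libraries lay above DMSO. The part of these markers in the results was not tested, and CD3E, COL1A2 and KRT5 were at 0 in every library. The share of mitochondrially encoded transcripts in CAMA-1 was 15.7% ± 0.87 (SD, n = 3) with DMSO, 24.8% ± 1.4 with abemaciclib and 23.6% ± 1.1 with palbociclib. Group means in ZR-75-1 lay between 19.0% and 20.2%. In bulk RNA, fewer cells that carry a transcript and less transcript per cell cannot be told apart.

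Sequence upstream of the start sites is shown for CLDN2, whose counts the set turns on, and for CLDN3 and CLDN4, neighbours on chromosome 7 that rose together in CAMA-1. The CLDN2 gene spans 106900164 to 106930861 of chromosome X on the plus strand (GRCh38, GENCODE release 44). CLDN3 (73768997 to 73770270, minus strand) and CLDN4 (73799542 to 73832690, plus strand) lie 29271 bases apart. The RefSeq start sites used here (GRCh38.p14) numbered 14 for 8 of the 9 genes, and no entry was matched for F11R. The 250 bases before each start were searched on both strands for GGTCA, the half-site of the oestrogen response element. The full element GGTCANNNTGACC, the Snail-type E-box CACCTG and the TATA box core TATAAA were also searched. Capitals mark GGTCA or its reverse complement TGACC, and each line runs 5′ to 3′ on the strand of the gene.
CLDN2 upstream start, chrX:106899914-106900163, plus strand: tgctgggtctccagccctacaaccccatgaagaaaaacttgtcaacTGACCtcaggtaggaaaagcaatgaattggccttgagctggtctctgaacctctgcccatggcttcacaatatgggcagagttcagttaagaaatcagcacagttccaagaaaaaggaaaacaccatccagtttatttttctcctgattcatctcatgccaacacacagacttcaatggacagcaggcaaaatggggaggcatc
CLDN2 downstream start, chrX:106918110-106918359, plus strand: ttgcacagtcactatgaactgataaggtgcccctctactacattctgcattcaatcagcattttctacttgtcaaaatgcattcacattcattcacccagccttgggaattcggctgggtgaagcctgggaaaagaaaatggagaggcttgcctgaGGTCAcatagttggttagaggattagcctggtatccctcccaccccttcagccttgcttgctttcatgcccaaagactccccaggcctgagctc
CLDN3, chr7:73770271-73770520, minus strand: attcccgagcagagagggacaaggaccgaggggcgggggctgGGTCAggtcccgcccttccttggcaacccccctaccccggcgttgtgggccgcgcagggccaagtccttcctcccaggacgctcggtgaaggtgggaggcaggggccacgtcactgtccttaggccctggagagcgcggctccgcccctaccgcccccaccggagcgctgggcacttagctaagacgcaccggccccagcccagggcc
CLDN4, chr7:73830746-73830995, plus strand: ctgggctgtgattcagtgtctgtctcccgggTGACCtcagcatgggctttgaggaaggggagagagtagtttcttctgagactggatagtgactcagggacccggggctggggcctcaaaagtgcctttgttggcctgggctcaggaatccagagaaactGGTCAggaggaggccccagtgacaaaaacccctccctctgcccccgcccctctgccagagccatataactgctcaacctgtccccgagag

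Each CLDN2 window held 1 half-site, at 204 bases before the upstream start and 94 bases before the downstream start. CLDN3 had 1 half-site and CLDN4 had 2. The half-site is short and occurred in 32.6% of the 34788 distinct upstream windows in the RefSeq table, so these matches are descriptions and not sites. The full element was in 0.0402% of all windows and in none of the 14 windows of the set. The E-box, found in 17.5% of windows, matched 4 times before the first listed CLDN7 start and once in each of both OCLN windows and 1 of the 4 TJP1 windows. The TATA core, found in 10.8%, matched none of the 14. The windows of CLDN1 and CLDN12 held no match to any of these letters. GC content was 46.0% and 48.8% before the CLDN2 starts, against 71.6% for CLDN3 and 58.8% for CLDN4.

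CLDN2, the pore-forming claudin, was present at a handful of counts in untreated ZR-75-1 cells, was far higher there with either drug, and was at or near 0 in CAMA-1. CLDN2 counts in ZR-75-1 were 11, 7 and 7 under DMSO, then 189, 201 and 180 under abemaciclib, and 246, 203 and 264 under palbociclib. The drug groups overlapped with each other and neither overlapped with DMSO. Mean levels were 2.72 ± 0.77 CPM (SD, n = 3) with DMSO, 67.9 ± 4.5 with abemaciclib and 71.9 ± 5.1 with palbociclib. With abemaciclib, the fitted difference was 4.61 on the log2 scale (SE 0.29), or 24.5-fold. It is given without a test, since it shares its DMSO libraries with the palbociclib comparison that chose the gene and since CLDN2 passed the filter on low counts only with its drug libraries. The palbociclib difference that chose it was 4.70 (SE 0.29), or 26.0-fold.

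In CAMA-1, all 3 DMSO and all 3 palbociclib libraries had 0 CLDN2 counts, which allows up to the floor of 3 counts per library. The abemaciclib libraries of that line held 4, 1 and 1 counts. CLDN2 did not pass the filter on low counts in CAMA-1, and no fold is given. The order of the group means was thus palbociclib and abemaciclib in ZR-75-1, DMSO in ZR-75-1, then the CAMA-1 groups, all at the counting floor or 1 count above it. The palbociclib and abemaciclib groups of ZR-75-1, next to each other in that order, overlapped. Abemaciclib minus palbociclib was −0.09 (SE 0.12), given without a test.

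**Figure D1:**
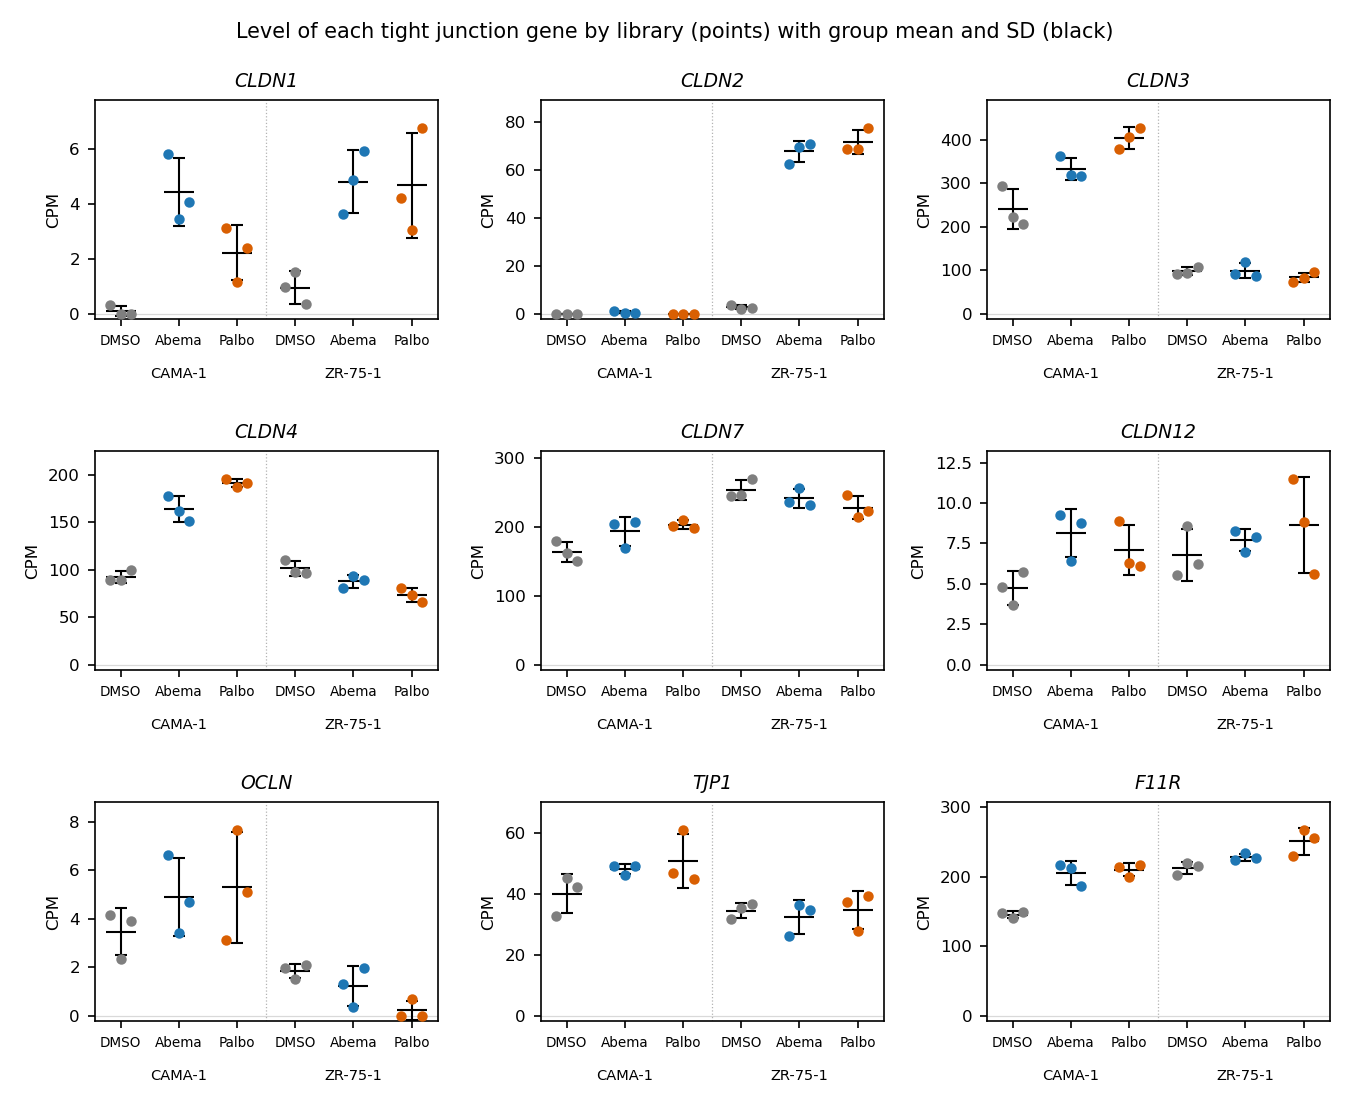
Level of each of the 9 tight junction genes in CPM (vertical axis, from 0, a separate scale for each gene) in the 18 libraries, by line and treatment (horizontal axis; Abema, abemaciclib; Palbo, palbociclib). Points are libraries and black bars are the group mean with its SD; CLDN2 reached 62.7 to 77.8 CPM in the drug libraries of ZR-75-1, whereas CLDN3 and CLDN4 were highest in the drug libraries of CAMA-1.

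The gene MORC4 overlaps CLDN2 over its whole length on the opposite strand, and RIPPLY1 overlaps its upstream end; whether the counting used strand was not stated, so reads of the overlap cannot be assigned from the labels. MORC4, which encodes a zinc finger protein of the MORC family, averaged 80.1 ± 5.9 CPM with DMSO in ZR-75-1, 152 ± 3.6 with abemaciclib and 172 ± 11 with palbociclib. Its rise with abemaciclib was 0.92 (SE 0.09, adjusted p = 4.67e-12). In CAMA-1, where CLDN2 was at or near 0 counts, MORC4 had 87 to 192 counts per library. RIPPLY1 had 0 counts in 12 of the 18 libraries, which were all those of CAMA-1 and the DMSO libraries of ZR-75-1. In ZR-75-1 it had 1, 1 and 2 counts with abemaciclib and 13, 8 and 2 with palbociclib. These genes were named after their values were seen, and their part in the CLDN2 counts was not tested.

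CLDN1, a sealing claudin, had low counts, with every drug library above the DMSO libraries of its line. Its counts in CAMA-1 were 1, 0 and 0 under DMSO, 22, 8 and 13 under abemaciclib, and 13, 4 and 7 under palbociclib. Measured against the floor of 3 counts per library, CLDN1 was at least 5.02-fold higher with abemaciclib. With palbociclib it was at least 2.51-fold higher. Those in ZR-75-1 were 3, 5 and 1 under DMSO, 11, 14 and 15 under abemaciclib, and 15, 9 and 23 under palbociclib. The abemaciclib difference was 2.24 (SE 0.65), and the palbociclib difference was 2.22 (SE 0.64). No drug group overlapped with its DMSO group. The filter asked for 3 libraries of a line above 3.01 CPM in CAMA-1 or 3.25 CPM in ZR-75-1, and CLDN1 had 0 such DMSO libraries in either line. It was admitted by the libraries in which it was high, so these differences are given without a test. CLDN1 lies on chromosome 3, from 190305707 to 190322446 on the minus strand.

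CLDN3 and CLDN4, claudins typical of luminal epithelium, both rose in CAMA-1 and were not called in ZR-75-1. CLDN3 stood at 294, 223 and 206 CPM in the CAMA-1 DMSO libraries, at 362, 319 and 315 with abemaciclib and at 378, 407 and 427 with palbociclib. The groups given drug lay above all DMSO libraries. CLDN3 rose by 0.44 (SE 0.09, adjusted p = 6.89e-05) with abemaciclib and by 0.72 (SE 0.09, adjusted p = 5.49e-09) with palbociclib.

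CLDN4 stood at 89.4, 88.8 and 99.96 CPM in the CAMA-1 DMSO libraries, at 178, 162 and 151 with abemaciclib and at 196, 188 and 192 with palbociclib. It rose by 0.79 (SE 0.09, adjusted p = 6.74e-10) and by 1.01 (SE 0.09, adjusted p = 5.32e-13), the latter a 2.02-fold rise. Of the members in CAMA-1 that had counts above the floor in every group, CLDN4 had the largest fitted rise with either drug.

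In ZR-75-1, CLDN3 stood at 90.4, 93.6 and 108 CPM with DMSO, at 92.2, 119 and 86.4 with abemaciclib and at 73.2, 81.0 and 95.4 with palbociclib. All 3 groups overlapped. Its abemaciclib difference was 0.02 (SE 0.11, adjusted p = 0.892) and its palbociclib difference −0.23 (SE 0.11). CLDN4 in that line stood at 111, 97.6 and 96.4 CPM with DMSO, at 80.6, 93.1 and 89.2 with abemaciclib and at 80.5, 72.9 and 65.7 with palbociclib. Both drug groups lay below all DMSO libraries. The abemaciclib difference was −0.22 (SE 0.10) and missed the threshold (adjusted p = 0.0944), and the palbociclib difference was −0.48 (SE 0.11).

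CLDN7, a claudin of the lateral membrane as well as the junction, rose by small amounts in CAMA-1. In CAMA-1 it averaged 164 ± 15 CPM with DMSO, 193 ± 21 with abemaciclib and 203 ± 6.3 with palbociclib (SD, n = 3). The DMSO libraries at 150.1 to 179 CPM and the abemaciclib libraries at 169.5 to 207 overlapped, whereas the palbociclib libraries lay above DMSO. The rise was 0.22 (SE 0.08, adjusted p = 0.0347) with abemaciclib and 0.28 (SE 0.08, adjusted p = 0.00604) with palbociclib. The CLDN7 call with abemaciclib was lost by DESeq2 (adjusted p = 0.0854) and with any of 4 single libraries left out. The adjusted p was 0.0695 without DMSO replicate 2, 0.172 without DMSO replicate 3, 0.133 without abemaciclib replicate 1 and 0.163 without abemaciclib replicate 3. In ZR-75-1, CLDN7 averaged 253 ± 14, 241 ± 13 and 228 ± 16 CPM with DMSO, abemaciclib and palbociclib, with abemaciclib differing by −0.08 (adjusted p = 0.489) and palbociclib by −0.15 (SE 0.08). The gene lies on chromosome 17, from 7259903 to 7263983 on the minus strand.

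CLDN12, a claudin without the usual PDZ-binding end, had 11 to 41 counts per library. In CAMA-1 it averaged 4.74 ± 1.0, 8.15 ± 1.5 and 7.10 ± 1.6 CPM with DMSO, abemaciclib and palbociclib, and the drug groups lay above DMSO. Neither difference passed the test, at 0.74 (SE 0.34, adjusted p = 0.0721) with abemaciclib and 0.54 (SE 0.34, adjusted p = 0.214) with palbociclib. For ZR-75-1 the difference with abemaciclib was 0.17 (SE 0.34, adjusted p = 0.743), and the palbociclib difference was 0.34 (SE 0.33). CLDN12 lies on chromosome 7, from 90383721 to 90513402 on the plus strand, and overlaps GTPBP10 and CDK14 on that strand.

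OCLN had few counts. Its CAMA-1 libraries held 13, 7 and 17 counts with DMSO, 25, 8 and 15 with abemaciclib and 13, 27 and 15 with palbociclib, and all 3 groups overlapped. The difference was 0.49 (SE 0.43) with abemaciclib and 0.54 (SE 0.42) with palbociclib. Both are given without a test, since OCLN passed the filter in CAMA-1 only with its drug libraries. OCLN in ZR-75-1 did not pass the filter. Its libraries held 6, 5 and 6 counts with DMSO, 4, 1 and 5 with abemaciclib and 0, 2 and 0 with palbociclib, the last at least 2.03-fold lower than DMSO against the floor. OCLN lies on chromosome 5, from 69492292 to 69558104 on the plus strand. A pseudogene copy, OCLNP1, had at most 3 counts in any library.

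TJP1, the scaffold, was not called in any comparison of treatments. In CAMA-1 it stood at 32.9, 45.2 and 42.3 CPM with DMSO, at 49.2, 46.3 and 49.4 with abemaciclib and at 46.9, 61.2 and 44.9 with palbociclib. The abemaciclib libraries lay just above DMSO, with a difference of 0.24 (SE 0.14, adjusted p = 0.178), and the palbociclib difference was 0.31 (SE 0.14, adjusted p = 0.0661). The latter passed the threshold with DMSO replicate 2 left out or with palbociclib replicate 3 left out, and the smaller of these adjusted p-values was 0.0376. In ZR-75-1, group means were 34.6 ± 2.5, 32.5 ± 5.5 and 34.9 ± 6.2 CPM with DMSO, abemaciclib and palbociclib, and abemaciclib differed by −0.10 (SE 0.16, adjusted p = 0.676). TJP1 lies on chromosome 15, from 29699367 to 29968915 on the minus strand.

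F11R rose in CAMA-1 with both drugs. It stood at 147, 139.99 and 149 CPM with DMSO, at 217, 213 and 186 with abemaciclib and at 214, 200.02 and 217 with palbociclib, so that neither drug group overlapped with DMSO. The rise was 0.46 (SE 0.08, adjusted p = 9.16e-06) with abemaciclib and 0.50 (SE 0.08, adjusted p = 2.34e-06) with palbociclib. F11R in ZR-75-1 stood at 203, 219.97 and 216 CPM with DMSO, at 224, 234 and 227 with abemaciclib and at 229, 268 and 256 with palbociclib. Both drug groups lay above DMSO, but the abemaciclib difference of 0.09 (SE 0.08) did not pass the test (adjusted p = 0.391). The palbociclib difference was 0.23 (SE 0.08). F11R lies on chromosome 1, from 160995211 to 161021343 on the minus strand.

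**Figure D2:**
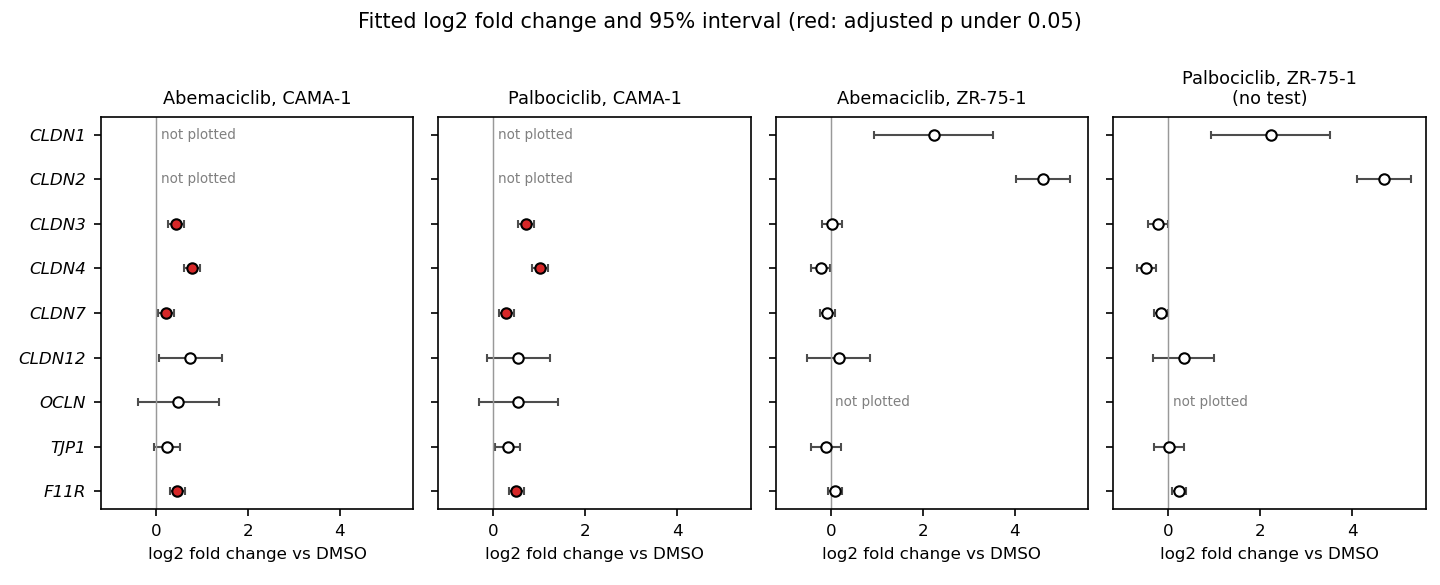
Fitted log2 fold change against DMSO with its 95% interval (horizontal axis) for each gene (vertical axis) in the 4 comparisons of a drug with DMSO; red points passed an adjusted p of 0.05, and open points either did not pass it or carry no test (the right-hand panel, which chose the set, and genes that passed the filter only with their drug libraries). Genes not plotted either did not pass the filter or had a DMSO group at the counting floor. In CAMA-1 the plotted rises ran up to 1.01 for CLDN4, and in ZR-75-1 CLDN2 stood at 4.61 and 4.70.

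By count, members that passed the filter only with their drug libraries (CLDN1 in both lines, OCLN in CAMA-1 and CLDN2 in ZR-75-1) were left out, which leaves 6 members tested in each line. In CAMA-1 with abemaciclib, 4 of the 6 were called higher and 0 lower, where 20.3% of all 11053 genes tested were called higher and 20.1% lower. The 4 were CLDN3, CLDN4, CLDN7 and F11R. These 4 were also called higher with palbociclib and 0 lower, against 18.4% and 18.7% of all genes. In ZR-75-1 with abemaciclib, 0 of the 6 were called by edgeR or by DESeq2, against 17.9% higher and 18.3% lower of 11017 genes, and 1, CLDN4, had an unadjusted p under 0.05. With palbociclib in ZR-75-1, 3 of the 8 genes that passed the filter (CLDN1, CLDN2 and F11R) had palbociclib libraries all above DMSO and 1 (CLDN4) all below, where 19.6% and 19.5% of all genes did, and nothing is read from this count.

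Abemaciclib and palbociclib both inhibit CDK4 and CDK6 and were given at the same dose and time. The levels of the members with each drug were compared directly in each line. No member was called in CAMA-1 (0 of 8 by edgeR and 0 of 5 by DESeq2), where 0.796% of all genes were higher with abemaciclib and 1.53% lower. The 8 include CLDN1 and OCLN, which passed the filter only with their drug libraries, and nothing is read from their part. CLDN3 and CLDN4 had an unadjusted p under 0.05. CLDN3 was lower with abemaciclib by −0.28 (95% interval −0.45 to −0.11, adjusted p = 0.0756). CLDN4 was lower by −0.22 (95% interval −0.39 to −0.06, adjusted p = 0.178), and in both genes the groups did not overlap. The CLDN1 difference was 1.00 (SE 0.51) and is given without a test, since the libraries in which CLDN1 was high admitted it.

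In ZR-75-1, 0 of the 7 members tested differed between the drugs by edgeR or by DESeq2. Of all genes, 5.23% were higher with abemaciclib and 7.94% lower. CLDN2 was left out of this test because its palbociclib libraries chose the set. CLDN1, which passed the filter only with its drug libraries, is among the 7, and nothing is read from its part. At an unadjusted p under 0.05 there were 2, CLDN3 at 0.25 (95% interval 0.03 to 0.48, adjusted p = 0.142) and CLDN4 at 0.26 (95% interval 0.04 to 0.47, adjusted p = 0.113). With palbociclib replicate 3 left out CLDN3 was called (adjusted p = 0.0405), and with palbociclib replicate 1 left out so was CLDN4 (adjusted p = 0.0439). For CLDN7, CLDN12, TJP1 and F11R the 95% intervals of the difference included 0 in both lines, running from −0.83 to 0.84 at the widest.

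Levels of the members were also compared between the untreated lines. CLDN2 is left out of this test because its DMSO libraries in ZR-75-1 are part of the comparison that chose the set. CLDN1 and OCLN are left out because neither had enough DMSO libraries above the cutoff of the filter. The other members were CLDN3, CLDN4, CLDN7, CLDN12, TJP1 and F11R. Of these with DMSO, CLDN7 and F11R were called higher in ZR-75-1 and CLDN3 lower. Of all 11987 genes, 31.5% were called higher and 29.8% lower, and nothing is read from this count. CLDN3 was lower in ZR-75-1, at 97.2 ± 9.3 CPM against 241 ± 47 in CAMA-1 (SD, n = 3), a difference of −1.30 (SE 0.10, adjusted p = 2.33e-17). CLDN7 was higher by 0.63 (SE 0.08, adjusted p = 1.15e-09), at 253 ± 14 against 164 ± 15 CPM. F11R was higher by 0.55 (SE 0.08, adjusted p = 2.79e-08), at 213 ± 9.0 against 145 ± 4.7 CPM.

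CLDN2 was at least 3.08-fold higher in ZR-75-1 against the floor, given without a test. CLDN1 was at least 1.08-fold higher against the floor, also without a test, with 3, 5 and 1 counts against 1, 0 and 0 in CAMA-1. The OCLN difference was −0.91 (SE 0.57), without a test. CLDN4 (0.13, adjusted p = 0.262), CLDN12 (0.50, adjusted p = 0.215) and TJP1 (−0.22, adjusted p = 0.209) were not called. TJP1 was called without CAMA-1 DMSO replicate 1 (−0.39, adjusted p = 0.0358).

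The responses of the lines to abemaciclib were then set against each other in a single fit, with the log2 fold change of CAMA-1 subtracted from that of ZR-75-1. Of all 11987 genes, 18.2% were called in either direction, 1203 of them with the lower response in ZR-75-1. CLDN1, CLDN2 and OCLN were left out, as in the counts within a line. For 4 of the 6 remaining members the difference between the lines was called, and all 4 were lower in ZR-75-1. Of these, CLDN4 had the largest, at −1.03 (SE 0.14, adjusted p = 2.03e-08), and was called in every alternative run. CLDN3 followed at −0.44 (SE 0.15, adjusted p = 0.0273), F11R at −0.40 (SE 0.11, adjusted p = 0.0084) and CLDN7 at −0.32 (SE 0.12, adjusted p = 0.0459). The CLDN3 call was lost by DESeq2 (adjusted p = 0.186) and without 9 of the 12 libraries left out singly, the exceptions being CAMA-1 DMSO replicate 1, ZR-75-1 DMSO replicate 1 and ZR-75-1 abemaciclib replicate 2. CLDN7 was not called under any of the 6 other fits (adjusted p from 0.0511 to 0.0948). It was also lost without 9 of the 12 libraries, the exceptions being CAMA-1 abemaciclib replicate 2, ZR-75-1 DMSO replicate 1 and ZR-75-1 abemaciclib replicate 2. F11R was lost without CAMA-1 DMSO replicate 2, CAMA-1 abemaciclib replicate 2, ZR-75-1 DMSO replicate 2 or ZR-75-1 abemaciclib replicate 1, with adjusted p from 0.061 to 0.0713. The fitted difference of CLDN2 rests on CAMA-1 groups at the floor and is not given.

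For palbociclib, the same difference contains the comparison that chose the set and has no test. It was −1.52 (SE 0.14) for CLDN4, −0.97 (SE 0.15) for CLDN3, −0.46 (SE 0.12) for CLDN7 and −0.29 (SE 0.11) for F11R. For TJP1 it was −0.32 (SE 0.21) and for CLDN12 −0.23 (SE 0.47).

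**Figure D3:**
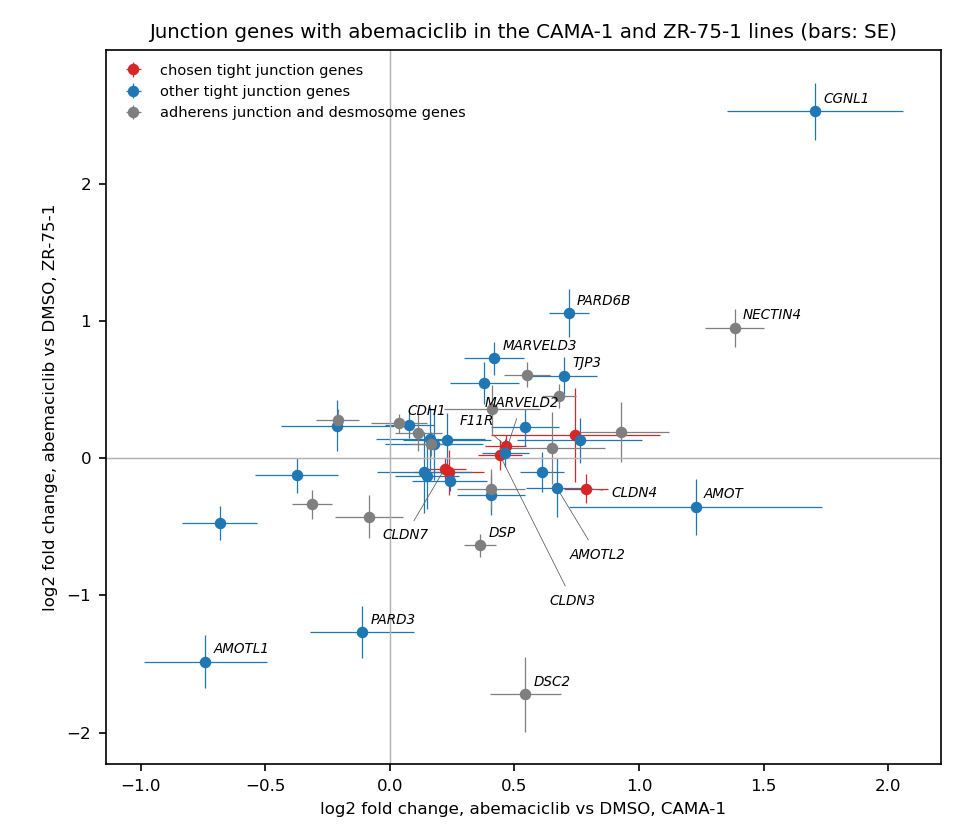
Log2 fold change with abemaciclib against DMSO in CAMA-1 (horizontal axis) and in ZR-75-1 (vertical axis). Points are 6 members (red), 24 other claudin and tight junction genes (blue) and 15 adherens junction and desmosome genes (grey). All passed the filter in both lines and lay above the floor in each group. Bars are standard errors. CLDN4 lay at 0.79 in CAMA-1 and −0.22 in ZR-75-1, whereas CGNL1 was far above 0 in both.

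CLDN2 was a minor claudin in untreated ZR-75-1 and took a share of claudin counts close to that of CLDN4 with palbociclib, and since palbociclib in ZR-75-1 chose the set these shares have no test. The kit reads transcript ends, so counts do not scale with length, and shares below are shares of counts over all 23 claudin genes of the lists. CLDN2 made up 0.585% ± 0.17 (SD, n = 3) of claudin counts in ZR-75-1 with DMSO, 13.1% ± 0.87 with abemaciclib and 15.2% ± 1.1 with palbociclib. Its share in single libraries ran from 0.473% to 0.783% with DMSO, from 12.5% to 14.1% with abemaciclib and from 14.1% to 16.3% with palbociclib. CLDN7 made up 54.2% ± 1.2 with DMSO, 46.6% ± 1.1 with abemaciclib and 48.0% ± 1.9 with palbociclib. CLDN4 went from 21.8% ± 2.1 to 17.0% ± 0.71 and 15.4% ± 1.5. The summed claudin level was 466 ± 17, 517 ± 35 and 474 ± 18 CPM, with overlapping DMSO and palbociclib libraries.

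In CAMA-1 the sum was 506 ± 57 CPM with DMSO, 710.2 ± 53 with abemaciclib and 815 ± 19 with palbociclib. There CLDN2 took at most 0.138% of claudin counts in any library. CLDN3 made up 47.3% ± 3.7 of them with DMSO, 46.8% ± 1.2 with abemaciclib and 49.5% ± 1.9 with palbociclib. CLDN4 went from 18.5% ± 2.9 to 23.1% ± 1.3 and 23.5% ± 0.94, and CLDN7 from 32.4% ± 1.2 to 27.2% ± 2.3 and 24.9% ± 1.0.

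**Figure D4:**
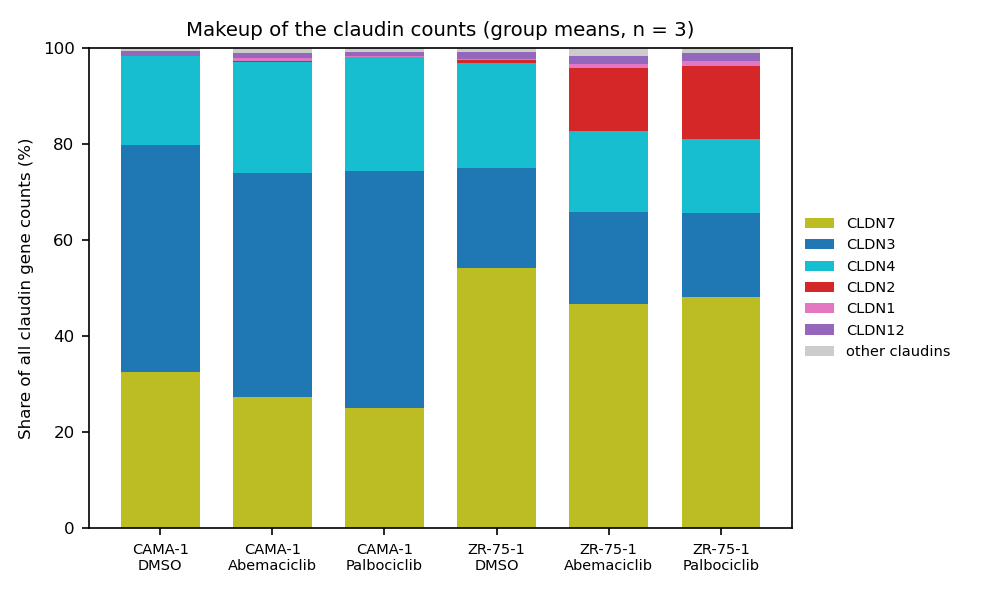
Share of all claudin gene counts (vertical axis, percent) taken by each claudin in the 6 groups (horizontal axis), as means of 3 libraries; the SDs of the main shares stand in the text. The red block, CLDN2, is 0.585% in ZR-75-1 with DMSO and 13.1% and 15.2% with abemaciclib and palbociclib.

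The rest of the tight junction was read from a list of 47 other genes, 17 claudins and 30 scaffold, polarity and adhesion genes. In CAMA-1, 26 passed the filter; 13 were called higher and 2 lower with abemaciclib, beside 20.3% and 20.1% of all genes, with a median log2 fold change of 0.39 against 0.01 over all genes tested. With palbociclib, 11 were higher and 0 lower, beside 18.4% and 18.7%, with a median of 0.33 against 0.0011. In ZR-75-1, 25 passed; 7 were higher and 3 lower with abemaciclib, beside 17.9% and 18.3% of all genes, with a median of 0.10 against −0.0037. With palbociclib in ZR-75-1, 5 lay wholly above and 7 wholly below DMSO, beside 19.6% and 19.5% of all genes, and the median was −0.03. The counts of called rises keep CGNL1 and AMOT in CAMA-1 and CLDN15 in ZR-75-1. These passed the filter there only with their drug libraries.

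CGNL1 (paracingulin), a cytoplasmic plaque protein that binds ZO-1, had the largest called rise of that list with abemaciclib in ZR-75-1. In CAMA-1 it averaged 3.80 ± 1.5, 13.4 ± 2.1 and 12.1 ± 6.1 CPM with DMSO, abemaciclib and palbociclib (SD, n = 3). The CAMA-1 differences were 1.70 (SE 0.35) and 1.60 (SE 0.35). Both are given without a test, since CGNL1 passed the filter in CAMA-1 only with its drug libraries. CGNL1 in ZR-75-1 averaged 8.02 ± 0.79, 46.8 ± 6.5 and 37.1 ± 0.96 CPM, and the rise with abemaciclib was 2.53 (SE 0.21). Its relative CGN (cingulin) rose in CAMA-1 by 1.04 (SE 0.12) and 0.96 (SE 0.12), from 39.1 ± 5.6 to 83.3 ± 6.8 and 78.6 ± 0.87 CPM. CGN in ZR-75-1 had group means of 0.890 to 1.32 CPM, near the floor, and was not tested. TJP3 (ZO-3), a scaffold related to TJP1, rose by 0.90 (SE 0.13) with palbociclib in CAMA-1.

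The polarity gene PARD6B rose by 1.06 (SE 0.18, adjusted p = 1.4e-06) with abemaciclib in ZR-75-1. The claudin CLDN15 averaged 2.57 ± 0.82 CPM there with DMSO and 7.31 ± 2.0 with abemaciclib, a difference of 1.46 (SE 0.46). It is given without a test, since CLDN15 passed the filter in ZR-75-1 only with its drug libraries. The polarity scaffold gene PARD3 fell by 1.27 on the log2 scale (SE 0.19), from 42.9 ± 6.5 to 17.9 ± 6.5 CPM. The angiomotin family gene AMOTL1 fell by 1.48 (SE 0.20), and ARHGEF2, an exchange factor held at junctions, fell by 0.47 (SE 0.12, adjusted p = 0.00143). In CAMA-1 with abemaciclib, ARHGEF2 fell by 0.68 (SE 0.15). AMOTL1 fell by 0.74 there (SE 0.25, adjusted p = 0.0136), and DESeq2 did not call it (adjusted p = 0.0572), nor did edgeR once abemaciclib replicate 1 was left out (adjusted p = 0.115). The AMOT difference there was 1.23 (SE 0.51), with overlapping groups. It is given without a test, since AMOT passed the filter in CAMA-1 only with its drug libraries.

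Of 17 adherens junction and desmosome genes, 16 passed the filter in each line. In CAMA-1, 8 were called higher and 2 lower with abemaciclib, beside 20.3% and 20.1% of all genes, and again with palbociclib, beside 18.4% and 18.7%. In ZR-75-1, 5 were higher and 5 lower with abemaciclib, beside 17.9% and 18.3%. CDH1 (E-cadherin), the core adhesion protein of the adherens junction, was at 857 ± 16 CPM in ZR-75-1 with DMSO and rose by 0.25 (SE 0.07, adjusted p = 0.00199) with abemaciclib. In CAMA-1 it was at 72.7 ± 8.9 CPM and was not called (0.04 and −0.02). EPCAM, an epithelial adhesion molecule that binds CLDN7, was not called in any of the 3 tested comparisons, at 0.17 and −0.04 in CAMA-1 and 0.11 in ZR-75-1, though it was called with abemaciclib in CAMA-1 without DMSO replicate 1 (adjusted p = 0.0304).

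Of 15 transcription factors known to act on claudin genes, 6 passed the filter in each line. GRHL2, which maintains epithelial junction genes, rose by 0.53 (SE 0.12, adjusted p = 0.000304) with abemaciclib in CAMA-1. It was not called for palbociclib in CAMA-1 (0.08) or for abemaciclib in ZR-75-1 (0.07). ELF3, an epithelial ETS factor, averaged 41.1 ± 3.9 CPM in CAMA-1 with DMSO, 55.6 ± 1.5 with abemaciclib and 98.4 ± 5.6 with palbociclib. It rose by 0.40 (SE 0.12, adjusted p = 0.0059) with abemaciclib and by 1.23 (SE 0.11, adjusted p = 2.47e-12) with palbociclib. ELF3 fell in ZR-75-1 by 0.26 with abemaciclib (SE 0.10, adjusted p = 0.0432), and that call was lost under upper-quartile scaling, without the filter and by DESeq2 (adjusted p from 0.0538 to 0.146). ELF3 also lost it with 1 of 4 libraries left out, the adjusted p being 0.153 without DMSO replicate 1, 0.0929 without DMSO replicate 2, 0.334 without abemaciclib replicate 2 and 0.0703 without abemaciclib replicate 3. CDX2, an intestinal factor, and GATA4 had 0 counts in all libraries.

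The genes whose pattern was most like that of CLDN2 were found by Pearson correlation of log2(CPM + 1), given as a description. Over all 18 libraries these were CCNJL, SUB1, ORMDL3, SERPINA5 and BPIFB1 (r from 0.985 to 0.975, among 10670 genes). CCNJL had 0 counts in all 9 CAMA-1 libraries, 3 to 7 in ZR-75-1 with DMSO, 25 to 32 with abemaciclib and 33 to 37 with palbociclib. SUB1 differed from CLDN2 in being abundant in CAMA-1 as well, at 189.6 to 222 CPM by group mean, against 380.4 to 1075 in ZR-75-1. Over the 9 ZR-75-1 libraries alone they were PDZK1, TUBA3E, LGALS3BP, LASP1 and SEC14L2 (r from 0.996 to 0.994, among 10378 genes). PDZK1, a PDZ-domain scaffold of membrane transporters, went from 13.2 ± 2.2 CPM with DMSO to 133 ± 13 and 124 ± 12 in ZR-75-1. All genes share these libraries and their groups, and no p is attached to these r values.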

How the data were processed

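RNA of 18 libraries was measured with a Lexogen QuantSeq 3′ kit, which the labels and the methods describe with different strand types. The values are counts per gene as deposited by the authors, who trimmed reads with BBDuk, aligned them with STAR 2.7.5b to hg38 and counted them over GENCODE release 35 genes with featureCounts 2.0.1 (tool versions per the labels). Use of strand, treatment of multimapping reads and molecular identifiers were not given in the sources used here, so floors cover counting error only. Library totals ran from 2308442 to 4146549 counts, and all 18 columns matched a sample title.

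Each line was fitted on its own (9 libraries) in edgeR 4.0.16 under R 4.3.3, with filterByExpr, TMM scaling and the quasi-likelihood F test, two-sided. Differences between lines came from a fit of all 18 libraries. P-values were adjusted by the Benjamini-Hochberg procedure across the genes of a fit, and a gene was called at an adjusted p under 0.05. Standard errors were computed from the quasi-likelihood fit, and all log2 fold changes are fitted. Where a group lay at or under 3 counts in all its libraries, the fold was set against that floor and is a lower bound. The scripts were tested on simulated data. Names came from a gene name table that held 60445 of the 60656 identifiers, coordinates from GENCODE release 44 (GRCh38) and start sites from RefSeq.

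The members and gene lists were chosen with earlier results of these data known. Named outside the members were the 3 largest called rises and falls of the wider tight junction list in each tested comparison with DMSO, CDH1, EPCAM, GRHL2, ELF3, and the 5 genes most like CLDN2 by Pearson r over 18 and over 9 libraries (mean of at least 10 counts). The palbociclib difference between lines had been planned as a test for the members other than CLDN2 and is given without one, because it contains the comparison that chose the set. CLDN1, CLDN2 and, in CAMA-1, OCLN passed the filter only with their drug libraries and are likewise given without a test against DMSO. These genes are also given without a test between the untreated lines. They are left out of the count for the difference between lines under abemaciclib. The CLDN1 difference between the drugs in CAMA-1 is given without a test too. Outside the members, CGNL1 and AMOT in CAMA-1 and CLDN15 in ZR-75-1 also passed only with drug libraries and have no test against DMSO. Alternatives were RLE and upper-quartile scaling, totals without mitochondrial genes, no filter, DESeq2 1.42.0 (the tool of the study), a replicate block and each library left out.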

Additional observations from a re-analysis of the deposited data

Results flagged for a closer look

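The response to abemaciclib differed between the lines for 4 of the 6 members tested in each line, by the interaction test in a single edgeR fit. In each case the lower log2 fold change was in ZR-75-1, and 18.2% of all genes were called in either direction. The differences were −1.03 for CLDN4, −0.44 for CLDN3, −0.40 for F11R and −0.32 for CLDN7. CLDN4 rose in CAMA-1 and its ZR-75-1 abemaciclib libraries lay below DMSO without passing the test, whereas CLDN3, CLDN7 and F11R rose in CAMA-1 and differed from DMSO by at most 0.09 in size in ZR-75-1. The share of mitochondrially encoded transcripts rose with abemaciclib in CAMA-1 and not in ZR-75-1. The CLDN7 call was lost under all 6 other fits (adjusted p from 0.0511 to 0.0948), among them the one without mitochondrial genes, and the CLDN3 call by DESeq2 (adjusted p = 0.186). With single libraries left out, CLDN3 and CLDN7 each lost the call in 9 of 12 runs and F11R in 4 of 12. Only CLDN4 was called in every alternative run.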

How the results depend on the processing

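Of the alternatives to single values and counts, 1452 kept the direction and the side of the threshold, 53 lost a call, 8 gained one, 25 moved and 25 changed sign. Of the 6 members tested in each line, 4 were called higher with abemaciclib in CAMA-1 (3 by DESeq2), where 20.3% of all genes were. With palbociclib in that line 4 were called higher (4 by DESeq2), beside 18.4% of all genes. For abemaciclib against DMSO in ZR-75-1, 0 were called by either tool, beside 17.9% higher and 18.3% lower. Between the drugs, CAMA-1 had 1 call, CLDN3, without the filter, and ZR-75-1 had 0 to 1 with single libraries left out. For the difference between lines under abemaciclib, 4 members were called, but 2 by DESeq2, 3 in each of the other 5 fits, and 1 to 4 with single libraries left out. The CLDN2 difference with palbociclib in ZR-75-1 ran from 4.549 to 4.949 with single libraries left out, the highest without DMSO replicate 1.

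The sign changes of tested values came with single libraries left out and concern differences that were not called. With abemaciclib in CAMA-1, CDH1 ran from −0.07287 to 0.1093 and PARD3 from −0.3037 to 0.006463. With palbociclib in CAMA-1, CDH1 ran from −0.1278 to 0.0542, EPCAM from −0.1614 to 0.04654 and GRHL2 from −0.03816 to 0.1479. With abemaciclib in ZR-75-1, CLDN3 ran from −0.1182 to 0.1133, TJP1 from −0.1897 to 0.03866 and GRHL2 from −0.01377 to 0.1782. For abemaciclib minus palbociclib in CAMA-1, CLDN7 ran from −0.1118 to 0.009581, OCLN from −0.3521 to 0.326, TJP1 from −0.1495 to 0.07421 and F11R from −0.07408 to 0.03379. In ZR-75-1 the same difference ran from −0.189 to 0.3853 for CLDN1, from −0.3999 to 0.1127 for CLDN12 and from −0.2385 to 0.01972 for TJP1. Of the values without a test, the palbociclib difference of TJP1 in ZR-75-1 ran from −0.001445 to 0.02598 over the other fits and from −0.08313 to 0.1417 with single libraries left out, and that of CLDN12 between lines from −0.503 to 0.04531. The causes were not tested.

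Same-numbered libraries share only a number. Over 18 pairs of same-numbered libraries from different groups of a line, the correlation of their deviations ran from −0.0608 to 0.0215. Of these pairs, 0 were above 0.1. With the replicate block, 3 members in place of 4 were called for the difference between lines (CLDN7, adjusted p = 0.0551), and the other counts of members called were unchanged. Changing the scaling moved the median of all genes by at most 0.0478. Depth limits CLDN1 with DMSO, CLDN2 in CAMA-1 and OCLN in ZR-75-1, at or near the floor of 3 counts, and leaves wide errors for CLDN12 and for OCLN in CAMA-1.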

Other observations

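Some junction genes outside the naming rule, chosen after their values were seen, moved with abemaciclib in opposite directions in the lines or in the same one. DSP (desmoplakin) and DSC2 (desmocollin), both of the desmosome, rose with abemaciclib in CAMA-1, DSP by 0.36 (SE 0.07, adjusted p = 1.73e-05) and DSC2 by 0.54 (SE 0.14, adjusted p = 0.00199). Both fell in ZR-75-1, DSP by 0.63 (SE 0.08) and DSC2 by 1.72 (SE 0.27) on the log2 scale. The difference between the lines was −1.02 for DSP (SE 0.10, adjusted p = 8.78e-12) and −2.29 for DSC2 (SE 0.29, adjusted p = 2.26e-09). NECTIN4, an adherens junction adhesion molecule, rose in both, by 1.38 (SE 0.12) and 0.95 (SE 0.14). MARVELD2 (tricellulin), which lies beside OCLN on chromosome 5, rose in CAMA-1 by 0.46 (SE 0.09, adjusted p = 8.43e-05) with abemaciclib and 0.44 (SE 0.09, adjusted p = 0.000182) with palbociclib. Its ZR-75-1 abemaciclib difference was 0.04 (adjusted p = 0.818).

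Of the genes near CLDN3 and CLDN4, BUD23 rose by 1.05 (SE 0.08) with abemaciclib in ZR-75-1, where neither claudin was called. In CAMA-1 with palbociclib BUD23 fell by 0.29 (SE 0.08, adjusted p = 0.00204), where both claudins rose. ABHD11 fell by 0.49 in ZR-75-1 with abemaciclib (SE 0.12, adjusted p = 0.000943).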
